A study of Mus musculus with 8 samples.

Results

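Lungs of 4 mice carrying LysM-DTR bone marrow were compared with lungs of 4 mice carrying wild-type bone marrow, over both genotypes of the recipient. A gene was counted as separated by marrow genotype when all 4 arrays of one marrow genotype lay above all 4 arrays of the other, and 630 of the 25830 genes tested met that rule. Of these, 291 lay higher and 339 lay lower with LysM-DTR marrow. The rule reads the measured levels, so the separation of a gene is given as a description with no test, and limma's test of the averaged difference is given beside it.

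Group names give the marrow donor by their first letter and the recipient by their second, L for LysM-DTR and W for wild type. LL and LW mice thus carried LysM-DTR marrow, and WL and WW mice carried wild-type marrow. Each group held 2 mice with 1 array each, all male and 22 weeks old. Every mouse received diphtheria toxin, DT, and its lung was taken 72 hours later, so the LysM-DTR effect is always an effect in the presence of toxin, with no array of an untreated mouse analysed here.

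In LysM-DTR mice the lysozyme M promoter drives a receptor for diphtheria toxin, which mouse cells otherwise bind poorly, and toxin that enters a cell stops protein synthesis and kills it. Monocytes, macrophages and neutrophils make lysozyme M and descend from the marrow, and alveolar type 2 cells of the recipient lung make it too. After a marrow transplant most blood cells come from the donor, while the epithelium, the vessels and some long-lived macrophages of the host stay. The share of donor cells in these lungs is not given in the labels. In RNA of whole lung, fewer cells of a type and less RNA per cell cannot be told apart.

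Levels are log2 signal minus the 75th percentile of the array, so 0 is the level of that percentile, and differences are LysM-DTR marrow minus wild-type marrow. The lung label held: Sftpc, Scgb1a1 and Ager, made by alveolar and airway epithelium, stood at 7.41 or above on all 8 arrays. Between 66.3% and 72.3% of the spots of an array were well above background, and no spot was saturated. The WL mice differed from each other: their arrays correlated at 0.96 across genes, against 0.99 or more within each other group, and WL replicate 1 correlated at 0.986 to 0.99 with the LW and WW arrays while WL replicate 2 did so at 0.949 to 0.955. WL replicate 2 correlated more closely with the LL arrays, which share its recipient genotype, at 0.968 and 0.976, than with WL replicate 1. WL replicate 1 correlated with the LL arrays at 0.956 and 0.957, less closely than with the arrays of wild-type recipients. Whether either WL array goes against its label cannot be told from these correlations. Every LL minus WL and averaged value rests on both WL arrays, and the list values that turn on WL replicate 2 are given without it. Without a WL array more of all genes were called, so list counts from such fits cannot be set against the all-array share. LW replicate 2 stood apart in genes known from liver, with the albumin gene Alb at 3.84 and at -5.80 to -1.43 on the other 7 arrays. All arrays lay on 1 slide in 1 scan, with LysM-DTR marrow at places 1 and 2 of each slide column and wild-type marrow at places 3 and 4, so marrow genotype and place on the slide cannot be told apart.

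Separated genes made up 2.44% of the genes tested, 1.13% higher and 1.31% lower. Marrow labels given to the arrays at random would separate a gene in either direction with a probability of 0.0286. The share of separated genes was no higher than that, so their number alone does not show an effect of marrow genotype. Most separations were narrow. The median gap between the lowest array of the upper side and the highest array of the lower side was 0.08 among genes lower with LysM-DTR marrow and 0.054 among genes higher with it, and 14 lower and 2 higher genes had a gap over 0.5. At the edge of the rule, Rtel1 and Snap47 were inside on the higher side with gaps of 0.000102 and 0.00017, and Slurp1 and Ap1s3 were outside at -0.000151 and -0.000303. On the lower side Ccnl2 and Tmem131 were inside with gaps of 0.000302 and 0.000662, and C1galt1c1 and Tmem215 were outside at -0.000346 and -0.000461.

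In the averaged test, limma called 82 genes at an adjusted p under 0.05, 0.317% of those tested, of which 25 rose (0.0968%) and 57 fell (0.221%) with LysM-DTR marrow. Both rules named 6 genes higher and 20 genes lower. The count in this averaged marrow effect rests on single arrays: it was 0 without LL replicate 1, without WW replicate 1 or without WW replicate 2, 1 without LW replicate 2 and 34 without LW replicate 1. It was 474 without WL replicate 1 and 2183 without WL replicate 2. For one gene, an exact permutation test of 4 against 4 arrays cannot give a two-sided p below 0.0286.

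With all arrays in the fit, more genes were called for the marrow effect within LysM-DTR recipients than within wild-type recipients. With the compared arrays alone, 0 were called in each. LL minus WL also holds the WL arrays that differed from each other. Within LysM-DTR recipients, LL against WL, limma called 445 genes, 1.72% of those tested, of which 148 rose (0.573%) and 297 fell (1.15%). Within wild-type recipients, LW against WW, it called 14 genes, 0.0542%, of which 12 rose (0.0465%) and 2 fell (0.00774%), with 569 genes at an unadjusted p under 0.05. The 57 genes that fell in the averaged test had a median difference of -3.43 between LL and WL and -0.38 between LW and WW. In 55 of them, 96.5%, the absolute difference was larger in LysM-DTR recipients, as it was in 73.4% of all genes. The difference between the marrow effects itself passed limma's interaction test in 16 genes, 0.0619%, positive in 1 (0.00387%) and negative in 15 (0.0581%). That count changed strongly when single arrays were left out, as given below. The separated genes lower with LysM-DTR marrow had medians of -0.80 and -0.39, and those higher had medians of 0.49 and 0.21.

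**Figure D1:**
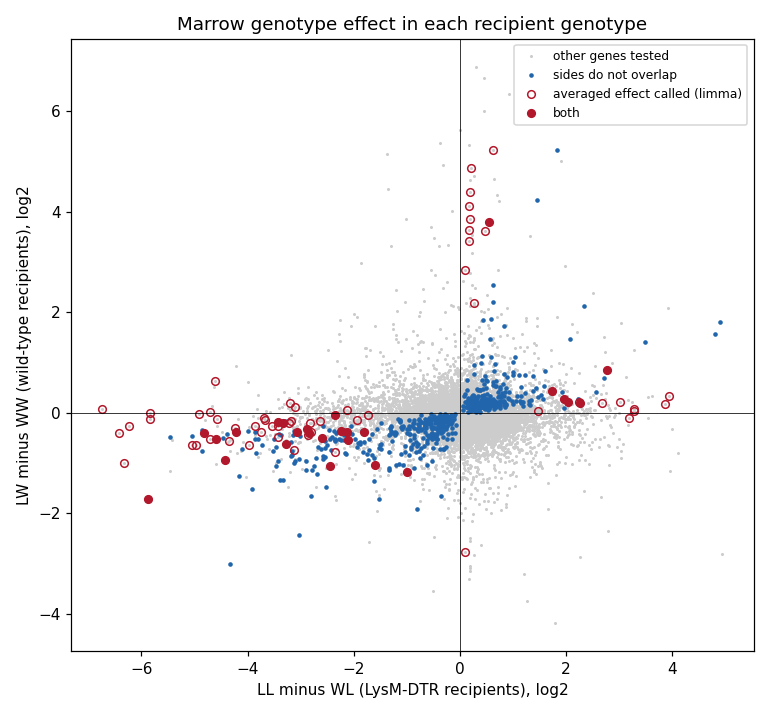
Difference between LL and WL (horizontal axis, log2) against the difference between LW and WW (vertical axis, log2), 1 point per gene over 25830 genes. Open and filled red circles are the 82 genes called in the averaged test, and blue points are other genes whose marrow sides do not overlap. Most called genes stretch along the left arm, far from 0 between LL and WL and near 0 between LW and WW, and a few run up the vertical axis.

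LW and WW share no array with LL and WL, and the genes called in LysM-DTR recipients were read in the other recipients. The reading is not independent of the calls, because limma's spread was pooled over all arrays, those of LW and WW included. Close LW and WW replicates thus favoured a call. They also make it easier for both LW arrays to lie on the same side of both WW arrays, and the shares below are not adjusted for this. Of the 297 genes that fell between LL and WL, 78.8% had a negative LW minus WW difference, against 55.1% of all genes, with a median of -0.2. Both LW arrays lay below both WW arrays in 44.4% of them, against 20.1% of all genes, and above both in 5.72%, against 13.7%. Across all genes the LL minus WL and LW minus WW differences correlated at 0.07. Of the 148 genes that rose between LL and WL, 53.4% had a positive LW minus WW difference, against 44.8% of all genes, and their median was 0.02. The places on the slide were the same in both pairs.

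Phagocyte receptors and the proteins behind them were among the lower genes with the widest gaps. Lrrc25, a membrane protein of myeloid cells, had the widest gap of the lower genes named here, 0.778. Its levels were -4.28 and -2.46 in LL and -2.44 and -2.07 in LW lungs, against -1.04 and -0.14 in WL and -1.29 and -0.96 in WW lungs. No LysM-DTR marrow array reached a wild-type marrow array. The averaged difference was -1.95 (SE 0.43), which limma did not call (adjusted p = 0.184).

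Slc11a1, a metal transporter of the phagosome, stood at -2.14 and -1.44 in LL and -0.95 and -0.85 in LW lungs, against 0.11 and 1.53 in WL and -0.20 and -0.16 in WW lungs. Clec4a1, a lectin receptor of monocytes, stood at -3.00 and -0.87 in LL and 0.39 and 0.38 in LW lungs, against 1.30 and 1.02 in WL and 1.14 and 1.55 in WW lungs. In both genes the LL arrays were lowest, the LW arrays next and the wild-type marrow arrays highest. Their averaged differences were -1.67 (SE 0.331, adjusted p = 0.145) and -2.03 (SE 0.448, adjusted p = 0.184) by limma.

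Igsf6, Pik3r5, Mefv and Ptafr were separated with gaps of 0.479, 0.466, 0.454 and 0.466. Pik3r5 is a regulatory subunit of a phosphoinositide kinase of leukocytes, Mefv encodes pyrin, and Ptafr is the receptor for platelet-activating factor. Limma called none of these 4 in the averaged test, with Pik3r5 at -1.57 (SE 0.296, adjusted p = 0.126).

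Fc receptors bind antibody on the phagocyte surface and signal through small adaptors with an activation motif. Of 23 genes of this chain tested, 14 were separated and lower with LysM-DTR marrow, 60.9% against 1.31% of all genes, and none was higher. The list was drawn up after the levels had been seen. Its median difference was -2.47 between LL and WL and -0.33 between LW and WW, against 0.05 and -0.02 over all genes, and limma called none of the 23 in the averaged test.

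The adaptor Tyrobp stood at -0.50 and 1.1 in LL and 3.31 and 3.12 in LW lungs, against 3.90 and 4.30 in WL and 3.57 and 3.92 in WW lungs. The adaptor Fcer1g stood at -0.23 and 1.13 in LL and 3.20 and 2.87 in LW lungs, against 3.63 and 3.99 in WL and 3.30 and 3.68 in WW lungs. LL arrays lay far below the rest in both, and LW arrays lay just below WW. Fcgr4, an activating receptor, stood at -3.84 and -1.75 in LL and -0.92 and -0.79 in LW lungs, against 0.17 and 0.29 in WL and -0.26 and 0.39 in WW lungs. Fcgr1, Fcgr3 and the inhibitory receptor Fcgr2b were separated as well, and so was Inpp5d, a phosphatase that restrains the chain, with a difference of -0.53 (SE 0.0991, adjusted p = 0.123 by limma).

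**Figure D2:**
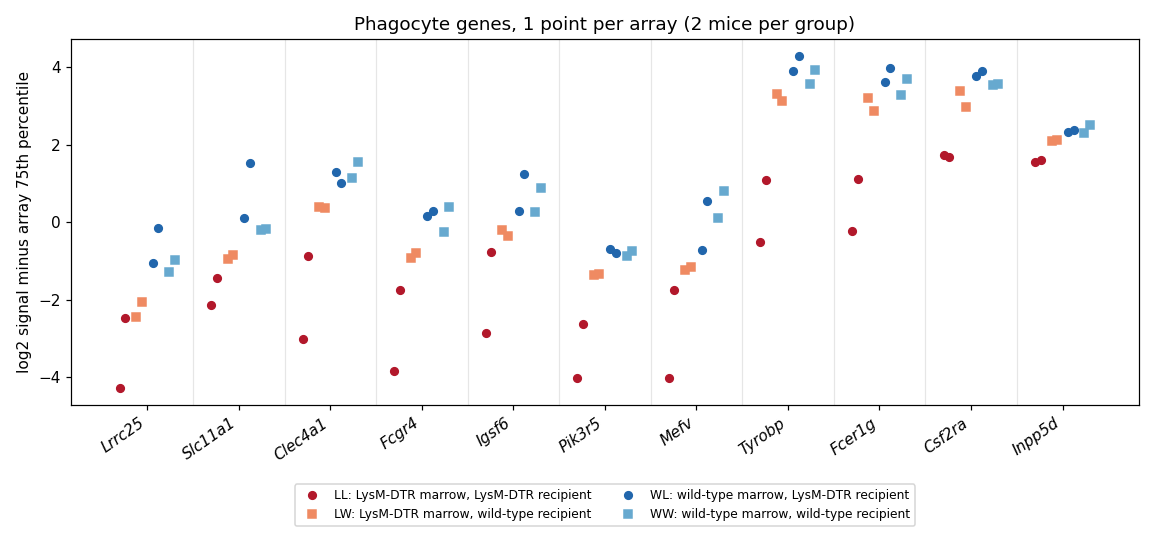
Level of 11 phagocyte genes (vertical axis, log2 signal minus the array 75th percentile), 1 point per array, in LL, LW, WL and WW lungs from left to right within each gene. The orange LW points lie between the dark red LL points and the blue points of wild-type marrow in most genes, and all LysM-DTR marrow points lie below all wild-type marrow points.

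Myeloid promoters are known for sites of the ETS family, to which the macrophage regulator PU.1 belongs. The promoters of Fcgr4 and Inpp5d are shown because each holds the letters GAGGAAGT on one strand or the other. They are the 250 bases before the RefSeq start of the gene on GRCm38.p6, chr1:171018676-171018925 and chr1:87620062-87620311, both on the plus strand, and capitals mark the match.
Fcgr4: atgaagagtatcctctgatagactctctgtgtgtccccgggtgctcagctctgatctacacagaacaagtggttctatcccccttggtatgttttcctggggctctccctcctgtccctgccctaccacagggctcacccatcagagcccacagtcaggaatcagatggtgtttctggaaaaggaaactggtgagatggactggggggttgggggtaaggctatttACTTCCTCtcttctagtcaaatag
Inpp5d: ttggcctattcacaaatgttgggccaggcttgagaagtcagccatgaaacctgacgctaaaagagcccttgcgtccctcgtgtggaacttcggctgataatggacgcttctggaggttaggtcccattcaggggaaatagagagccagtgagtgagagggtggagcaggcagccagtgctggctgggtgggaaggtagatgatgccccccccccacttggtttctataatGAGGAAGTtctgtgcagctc
The letters were found in 9 of the 217 lower separated genes with a promoter in the RefSeq table (4.15%), in 1 of 144 higher ones (0.694%) and in 334 of all 13827 genes tested that have one (2.42%). Spi1, which encodes PU.1, was separated too. It was not well above background on any LL or LW array and was on all 4 wild-type marrow arrays, at least 2.8-fold lower in LL than in WL and at least 1.31-fold lower in LW than in WW lungs.

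GM-CSF is the factor that maintains alveolar macrophages. Of 5 receptor chains for GM-CSF, IL-3 and IL-5, a list drawn up after the levels had been seen, 3 were separated and lower. That is 60%, against 1.31% of all genes, and 1 was called. Csf2ra, the ligand-binding chain, stood at 1.74 and 1.69 in LL and 3.39 and 2.96 in LW lungs, against 3.77 and 3.89 in WL and 3.55 and 3.56 in WW lungs. It fell by 1.25 on average (SE 0.125, limma adjusted p = 0.0307). The signalling chains Csf2rb and Csf2rb2 had averaged differences of -1.44 (SE 0.42) and -1.39 (SE 0.397), not called. Il3ra and Il5ra, the chains that bind IL-3 and IL-5, were not separated, with averaged differences of 0.14 (SE 0.111) and -0.09 (SE 0.191).

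Irf5, Itgb2 and Tlr8 are 3 further genes of phagocytes, picked after their values were seen. Irf5, a transcription factor downstream of the Toll-like receptors, stood at -1.82 on both LL arrays and at -0.31 and -0.30 in LW lungs, against 0.25 and 0.58 in WL and 0.09 and 0.04 in WW lungs. It was separated and fell by 1.30 on average (SE 0.11, limma adjusted p = 0.0221). Itgb2, the common chain of the leukocyte integrins, was separated too and fell by 1.62 (SE 0.196, adjusted p = 0.0459). Of 17 Toll-like receptor genes, a list drawn up after the levels had been seen, 3 were separated and lower, 17.6% against 1.31% of all genes. In the averaged test 2 fell, while Tlr3, Tlr5 and Tlr9 had averaged differences of 0.23, 0.33 and 0.07. Tlr8, a sensor of single-stranded RNA, was separated and fell by 1.95 (SE 0.148, limma adjusted p = 0.0221). It was not well above background in LL, at least 6.83-fold lower than in WL. Of 32 paired immunoglobulin-like receptors, drawn up likewise, 12 were separated and lower, 37.5% against the same 1.31%, and none was called.

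Several genes of recruited macrophages and monocytes fell in the averaged test, with most of the difference between LL and WL. Cx3cr1, the fractalkine receptor, stood at -4.35 and -4.82 in LL and 1.55 and 1.28 in LW lungs, against 2.30 and 1.36 in WL and 1.64 and 2.01 in WW lungs. The LL arrays lay below the others and the LW arrays overlapped the wild-type marrow arrays. The averaged difference was -3.41 (SE 0.245, limma adjusted p = 0.0196), made up of -6.41 between LL and WL and -0.41 between LW and WW, and these 2 effects differed (interaction adjusted p = 0.0412).

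C1qa, a chain of the first complement component, stood at -3.70 and -3.97 in LL and 1.1 and 0.67 in LW lungs, against 1.77 and 2.22 in WL and 0.99 and 0.79 in WW lungs. It fell by 2.92 on average (SE 0.167, adjusted p = 0.0157 by limma), with -0.01 between LW and WW. The partner chains C1qb and C1qc fell by 2.34 and 2.98, and Ms4a7 and the beta-glucan receptor Clec7a by 3.34 and 3.25. Each of these differed between the recipients as well, and so did Cd163, a haemoglobin scavenger receptor that was not well above background in LL and at least 11.6-fold lower there than in WL. Ccr2, the chemokine receptor of inflammatory monocytes, fell by 2.85 (SE 0.24, adjusted p = 0.0221) and Ctss, a lysosomal protease of antigen-presenting cells, by 2.61 (SE 0.221, adjusted p = 0.0221), with interaction adjusted p-values of 0.0542 and 0.0532.

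Over the 28 genes of the monocyte and recruited macrophage list, 7 fell in the averaged test and none rose. Separated and lower were 6, 21.4% against 1.31% of all genes. The median difference was -2.95 between LL and WL and -0.15 between LW and WW, where 25 of 28 were below 0. Without LW replicate 2 that count was 17 of 28, and 1 of the 28 was called. None was called without LL replicate 1, WW replicate 1 or WW replicate 2, and 13 and 14 were called lower without WL replicates 1 and 2. The whole list did not move one way: its summed signal was 839 and 975 times the array 75th percentile in LL and 552 and 533 in LW lungs, against 596 and 926 in WL and 600 and 596 in WW lungs. Ly6c1, which capillary cells also express, was its brightest member, at 8.14 and 8.42 in LL and 6.85 and 6.87 in LW lungs, against 6.94 and 7.85 in WL and 7.06 in both WW lungs.

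Of the general macrophage markers, Adgre1, on the surface of mature macrophages, was separated, at -4.12 and -2.21 in LL and 1.12 and 0.76 in LW lungs, against 1.86 and 1.51 in WL and 1.27 and 1.32 in WW lungs. Cd68 and Itgax were not separated, with averaged differences of -1.57 (SE 0.195) and -2.43 (SE 0.305), each with a limma adjusted p of 0.0521. Lyz2, whose promoter drives the toxin receptor, stood at 4.67 and 4.94 in LL and 8.99 and 8.84 in LW lungs, against 8.70 and 7.36 in WL and 9.05 and 9.09 in WW lungs. Its averaged difference of -1.69 (SE 0.289) was not called (adjusted p = 0.0995), and was called without either WL array.

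None of the 22 alveolar macrophage genes was separated or called in the averaged test. Their median difference was -1.12 between LL and WL and 0.02 between LW and WW. The LL minus WL median was -1.89 without WL replicate 2 and -0.44 without WL replicate 1. Some of the 22 were called lower with a WL array left out, as were more of all genes. A member was also called without LL replicate 2, and without LW replicate 1, 3 were separated. Siglecf, a defining lectin of these cells, was not well above background in LL, at least 12.1-fold lower than in WL, and stood at -1.74 and -1.02 in LW lungs, against -0.73 and -1.48 in WW lungs, which overlap.

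Chemokines attract leukocytes to tissue, and 4 of 33 tested were separated, all lower with LysM-DTR marrow, 12.1% against 1.31% of all genes. Ccl22, a product of dendritic cells and macrophages, was above background on no LL or LW array and on all 4 wild-type marrow arrays, at least 1.94-fold lower in LL than in WL and at least 1.27-fold lower in LW than in WW lungs. Ccl9 stood at 0.80 on both LL arrays and at 1.84 and 1.09 in LW lungs, against 2.42 and 3.51 in WL and 2.29 and 2.24 in WW lungs. Cxcl9, which draws activated T cells, and Ccl8 had averaged differences of -2.33 (SE 0.809) and -2.48 (SE 0.366), and limma called none of the 33 with all arrays. Without WL replicate 1, 3 were called lower, without LW replicate 1, 1, and without WL replicate 2, 5 lower and 3 higher. Of 19 dendritic cell genes, Batf3, Xcr1 and Ccl22 were separated, the first a regulator and the second a receptor of cross-presenting dendritic cells, with Xcr1 well above background on the 2 WL arrays alone. Of 15 genes of MHC class II presentation, Ctss and the costimulatory ligand Cd86 were. The LL minus WL median was -1.61 for dendritic cell and -2.2 for MHC class II genes, and -1.72 and -1.31 without WL replicate 1. More of both lists were called lower without WL replicate 2, as were more of all genes.

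Of 19 platelet genes tested, 5 fell in the averaged test and 6 were separated and lower, 31.6% against 1.31% of all genes. The medians were -1.89 between LL and WL and -0.64 between LW and WW, where 18 of 19 were below 0. Platelets carry RNA from megakaryocytes, which the lung also holds. Without LW replicate 2 the LW minus WW median was -0.3, none of the 19 was called and 6 were still separated. None was called without LL replicate 1, WW replicate 1 or WW replicate 2 either, 2 were called without LL replicate 2 or LW replicate 1, and 9 and 10 without WL replicates 1 and 2. The LW minus WW median was -0.98 without LW replicate 1, -0.95 without WW replicate 1 and -0.36 without WW replicate 2.

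Ppbp, the platelet basic protein, stood at -4.53 and -5.81 in LL and 1.54 and 0.97 in LW lungs, against 1.47 and 0.85 in WL and 1.94 and 2.58 in WW lungs. LL lay below all others, and LW lay below WW and overlapped WL. It fell by 3.67 on average (SE 0.345, limma adjusted p = 0.0271). Tubb1, the beta-tubulin of platelets, was separated with a gap of 0.554 and differed by -0.87 between LL and WL and -1.09 between LW and WW. It stood at -3.47 and -3.70 in LL and -3.68 and -3.77 in LW lungs, against -2.92 and -2.52 in WL and -2.65 and -2.61 in WW lungs. Its averaged difference was -0.98 (SE 0.129, adjusted p = 0.0536).

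Gp9 and Gp1ba, parts of the receptor for von Willebrand factor, fell by 2.81 (SE 0.27, adjusted p = 0.0283) and 2.68 (SE 0.275, adjusted p = 0.0312) in limma's averaged test. Neither was well above background in LL, where they were at least 30.3-fold and at least 8.12-fold lower than in WL, and Gp1ba was also separated. Alox12, the platelet lipoxygenase, fell by 1.75 (SE 0.177, adjusted p = 0.0307) and was separated, and the lectin receptor Clec1b fell by 2.31 (SE 0.221, adjusted p = 0.0283). Gata1, a regulator of megakaryocytes and red cells, was separated at -5.17 and -3.26 in LL and -3.57 and -3.66 in LW lungs, against -2.82 and -2.38 in WL and -2.59 and -1.92 in WW lungs. Of the 16 red cell genes tested none was separated or called.

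Gp5, another chain of that receptor, was separated, and its promoter is shown because it holds the letters AGATAA, the core read by GATA factors, at a pair of places. It lies at chr16:30310782-30311031 on the minus strand of GRCm38.p6, the 250 bases before the RefSeq start, with capitals for the matches on either strand.
Gp5: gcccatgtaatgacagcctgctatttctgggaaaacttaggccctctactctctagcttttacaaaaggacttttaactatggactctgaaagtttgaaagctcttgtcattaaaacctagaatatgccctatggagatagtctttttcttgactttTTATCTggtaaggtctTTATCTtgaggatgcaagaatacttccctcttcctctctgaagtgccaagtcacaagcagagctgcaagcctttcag
Of 15 platelet genes with a promoter in the table, 3 held these letters (20%), against 1021 of all 13827 (7.38%), 13 of the 217 lower separated genes (5.99%) and 18 of the 144 higher ones (12.5%).

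**Figure D3:**
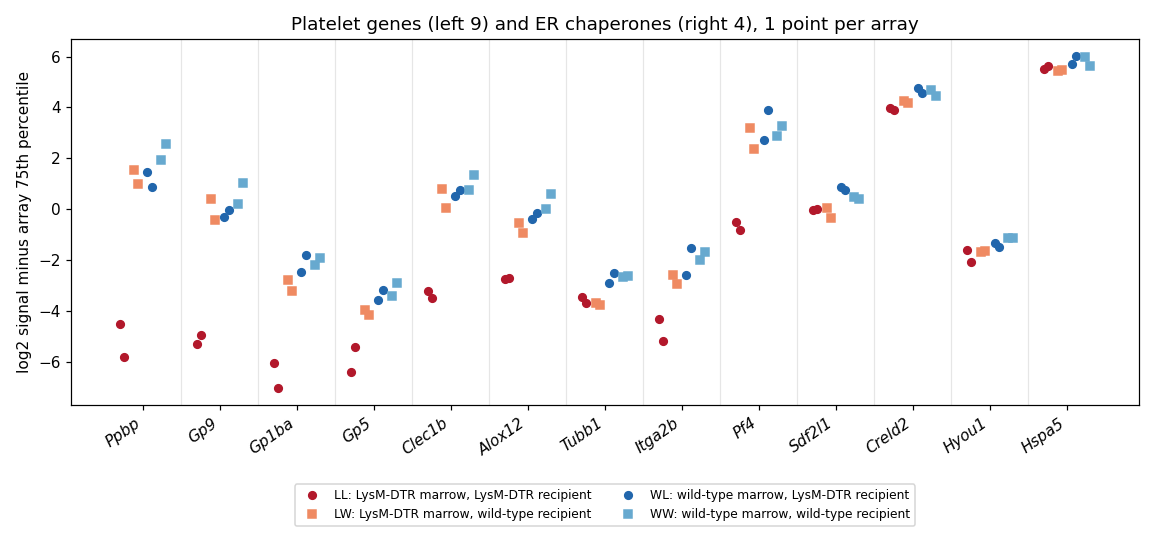
Level of 9 platelet genes and 4 chaperones of the endoplasmic reticulum (vertical axis, log2 signal minus the array 75th percentile), 1 point per array, in LL, LW, WL and WW lungs from left to right within each gene. LL points are far below the rest in most platelet genes, while in Tubb1 and the chaperones LL and LW lie close together below WL and WW.

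Chaperones of the endoplasmic reticulum fold secreted proteins and are induced by the unfolded protein response. Of 20 genes of that response tested, 4 were separated and lower, 20% against 1.31% of all genes, and none was called. The median was -0.17 between LL and WL, with 7 of 20 above 0, and -0.15 between LW and WW, with 5 of 20 above 0. Without WL replicate 1 the LL minus WL median was -0.45, and without WL replicate 2 it was -0.12, with 4 called lower and 1 higher. Sdf2l1 stood at -0.03 and 0.00 in LL and 0.05 and -0.34 in LW lungs, against 0.86 and 0.77 in WL and 0.46 and 0.42 in WW lungs. Its averaged difference was -0.71 (SE 0.12, limma adjusted p = 0.097), with -0.83 between LL and WL and -0.58 between LW and WW. Creld2, Hyou1 and Hspa5, which encodes the chaperone BiP, had averaged differences of -0.54 (SE 0.112), -0.48 (SE 0.134) and -0.34 (SE 0.129).

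The promoters of Hspa5 and Creld2 are shown because both hold the endoplasmic reticulum stress element, the letters CCAAT and CCACG with 9 bases of any kind between them on either strand, in capitals. They are chr2:34771840-34772089 and chr15:88819396-88819645 on the plus strand of GRCm38.p6, the 250 bases before the RefSeq start.
Hspa5: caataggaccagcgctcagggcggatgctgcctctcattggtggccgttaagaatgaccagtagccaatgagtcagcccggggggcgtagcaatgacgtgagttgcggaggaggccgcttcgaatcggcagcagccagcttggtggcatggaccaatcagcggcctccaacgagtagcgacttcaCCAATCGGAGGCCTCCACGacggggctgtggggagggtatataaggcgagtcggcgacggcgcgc
Creld2: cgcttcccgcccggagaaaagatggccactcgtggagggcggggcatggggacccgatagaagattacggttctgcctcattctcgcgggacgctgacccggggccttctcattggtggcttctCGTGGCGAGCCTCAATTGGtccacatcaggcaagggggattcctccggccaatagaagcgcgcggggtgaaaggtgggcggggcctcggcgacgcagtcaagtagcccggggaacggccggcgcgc
The element was found in 6 of 18 genes of the response with a promoter in the table (33.3%), in 4 of the 217 lower separated genes (1.84%), in none of the 144 higher ones and in 21 of all 13827 (0.152%).

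The heat shock chaperones of the cytosol and mitochondria are a list drawn up after the levels had been seen. Of 27 tested, 8 were separated and lower, 29.6% against 1.31% of all genes, none was higher, and none was called. Hspe1, the mitochondrial cochaperonin, stood at 3.60 and 3.65 in LL and 3.51 and 3.69 in LW lungs, against 3.95 and 4.32 in WL and 4.21 and 3.91 in WW lungs. Stip1, which links the cytosolic chaperones, had an averaged difference of -0.50 (SE 0.135) and Hsp90ab1 one of -0.46 (SE 0.113). The list's median was -0.35 between LL and WL and -0.27 between LW and WW.

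On the higher side, Stfa3 and Stfa1, protease inhibitors of neutrophils, were the only 2 of 27 neutrophil genes separated, 7.41% against 1.13% of all genes. With normexp background correction 0 of the 27 were separated, and with quantile normalization 1. Stfa3 stood at 0.26 and 1.27 in LL and -3.21 and -1.60 in LW lungs, against -4.33 and -3.94 in WL and -5.09 and -3.34 in WW lungs. The LL arrays were highest and the LW arrays lay between. The value of -5.09, on WW replicate 1, lies below the lowest signal well above background on that array, -4.57. Its averaged difference was 3.36 (SE 0.532), not called by limma (adjusted p = 0.0807). Stfa genes are close copies of each other, so which member gave the signal is uncertain. The neutrophil list had medians of 0.30 between LL and WL and -0.20 between LW and WW, and no member was called. The LL minus WL median was -0.09 without WL replicate 1, 1.07 without WL replicate 2, with 4 called higher, 0.95 without LL replicate 1 and 0.03 without LL replicate 2. The LW minus WW median was -0.36 without WW replicate 1 and -0.02 without WW replicate 2.

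Of 31 genes of fatty acid oxidation, a list drawn up after the levels had been seen, 6 were separated and higher, 19.4% against 1.13% of all genes, and none was lower or called. Decr1, a reductase for unsaturated fatty acids, had an averaged difference of 0.48 (SE 0.0971), and Ech1 and Eci1, isomerases of the same pathway, 0.29 (SE 0.121) and 0.26 (SE 0.107). The list's median was 0.31 between LL and WL and 0.01 between LW and WW.

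Several separated genes are known from liver. Serpina1b, an antitrypsin gene, stood at -0.94 and -1.13 in LL and -1.07 and 2.31 in LW lungs, against -1.49 and -1.85 in WL and -1.69 and -1.47 in WW lungs. The averaged difference was 1.42 (SE 0.691) with all arrays and 0.57 without LW replicate 2, the array on which Alb was high. Serpina1e differed by 1.59 (SE 0.874) with it and by 0.52 without it. Hamp2, a hepcidin gene, and Tat, a tyrosine aminotransferase induced by glucocorticoids, were separated with no such array, by 0.80 (SE 0.142) and 0.57 (SE 0.129). Limma called none of these 4 in the averaged test. Ces3a, a carboxylesterase, was well above background on the 2 LW arrays alone, through which it passed the filter, and at least 9.26-fold higher than in WW. Its levels were -5.25 and -5.49 in LL and -3.51 and 0.21 in LW lungs, against -7.48 and -6.91 in WL and -6.87 on both WW arrays. The order among the LL, WL and WW arrays is of values below background.

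Of the genes that rose in the averaged test, 13 of 25 were above background on exactly 2 arrays. Akr1c20 and Cyp2c50, enzymes of steroid and drug metabolism, and Olfr707, an olfactory receptor, were above background on the 2 LW arrays alone. The LW arrays include LW replicate 2, on which Alb was high. Akr1c20, Cyp2c50 and Olfr707 were at least 7.85-fold, 6.87-fold and 5.32-fold higher in LW than in WW lungs, and none was separated. Psmb11, a proteasome subunit of the thymus, was above background on the 2 LL arrays alone, at least 3.39-fold higher than in WL. Each of these named genes passed the filter only through the group where it was high, so its rise is a description and no support for a marrow effect.

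Nkx6-2, Gdf2 and Tbx18 were above background on all 8 arrays, rose in limma's averaged test and were separated. Nkx6-2, a homeobox factor, stood at 0.24 and 0.01 in LL and -1.48 and -1.59 in LW lungs, against -2.11 and -2.18 in WL and -1.75 and -1.72 in WW lungs. It rose by 1.23 (SE 0.102, adjusted p = 0.0221), mostly between LL and WL. Gdf2, a ligand of the BMP family, rose by 1.12 (SE 0.116, adjusted p = 0.0313) and Tbx18, a factor of mesothelium and smooth muscle precursors, by 1.08 (SE 0.115, adjusted p = 0.0336). Upk1b, a mesothelial marker, was separated with a difference of 0.74 (SE 0.152), not called.

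**Figure D4:**
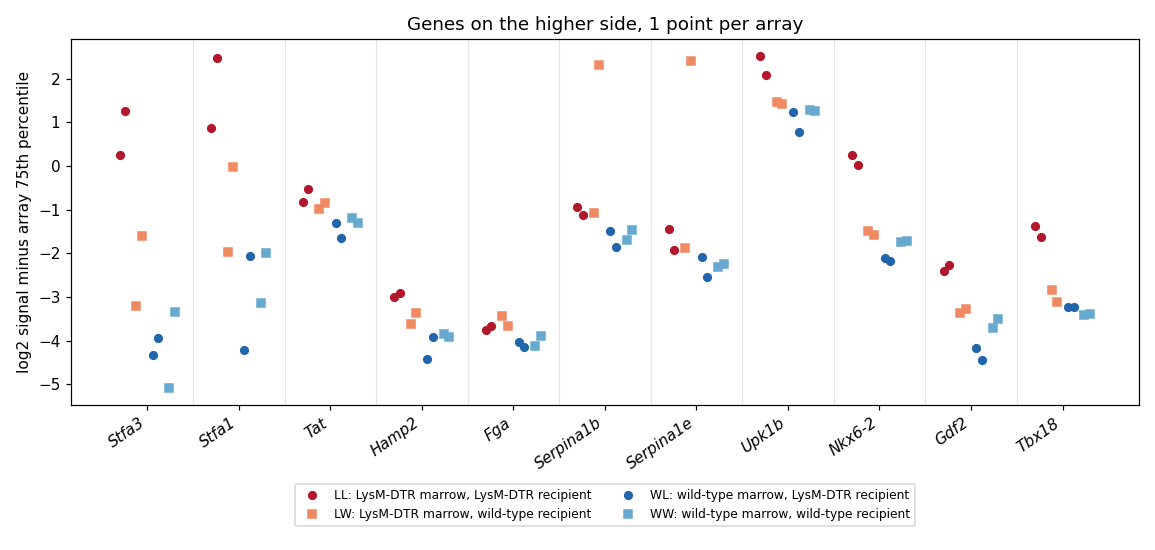
Level of 11 genes whose marrow sides do not overlap and that lay higher with LysM-DTR marrow (vertical axis, log2 signal minus the array 75th percentile), 1 point per array, in LL, LW, WL and WW lungs from left to right within each gene. LW replicate 2 is far above every other array in Serpina1b and Serpina1e, and the LL arrays lead in Stfa3, Nkx6-2 and Tbx18.

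Few genes of other cell types were separated, but the share over all genes was itself 2.44%. Of 21 T cell genes 1 was separated, and of 16 NK cell and 20 B cell genes none was. Of 20 endothelial, 20 fibroblast and smooth muscle and 9 mesothelial genes, 1 each was separated and higher. In lists of this size, none or 1 cannot be told apart from the share over all genes. T cell genes had medians of -1.15 between LL and WL and -0.01 between LW and WW, and NK cell genes -1.75 and -0.03. Without WL replicate 1 their LL minus WL medians were -0.62 and -1.02. None of the T cell, NK cell and B cell genes was called in the averaged test with all arrays. More were called lower without WL replicate 2, as were more of all genes. B cell genes had medians of -1.41 between LL and WL and 0.27 between LW and WW, where 18 of 20 were above 0 with all arrays and 10 of 20 were below 0 without LW replicate 2. The LL minus WL median of B cell genes was -0.49 without WL replicate 1 and -2.45 without WL replicate 2. None of the 22 alveolar type 2, 18 alveolar type 1, 21 airway, 39 cell cycle and 49 growth factor genes was separated. Type 1 cell genes had a median of 0.76 between LL and WL and -0.13 between LW and WW, and type 2 cell genes one of -0.91 and -0.08. The LL minus WL median of type 2 cell genes was 0.08 without WL replicate 1 and -1.44 without WL replicate 2. Hbegf, the gene of the native toxin receptor, stood at 4.12 and 4.0 in LL and 2.28 and 2.25 in LW lungs, against 2.39 and 4.09 in WL and 2.30 and 2.18 in WW lungs. It was high on both LL arrays, and with wild-type marrow on WL replicate 2 alone.

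**Figure D5:**
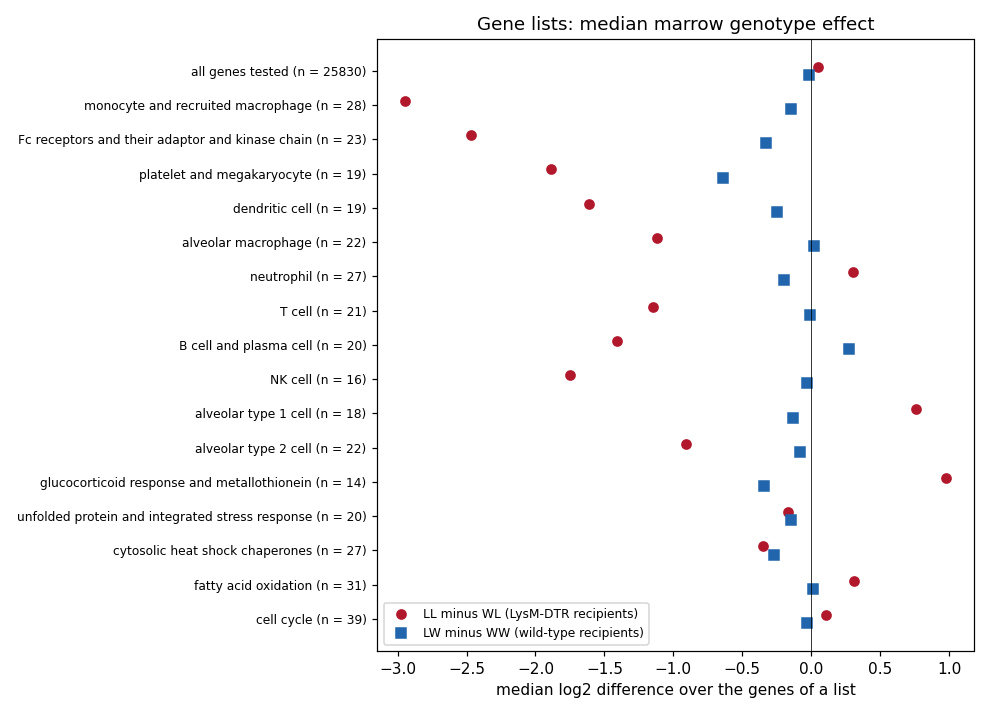
Median log2 difference over 16 gene lists and over all genes (down the page, with the number tested), between LL and WL (red circles) and between LW and WW (blue squares). The median over all genes is 0.05 and -0.02. In LysM-DTR recipients monocyte, Fc receptor, platelet, NK cell, dendritic cell, B cell, T cell and alveolar macrophage genes lie to the left. Their medians there run from -2.95 to -1.12, and type 2 cell genes have one of -0.91. Platelet genes lie furthest to the left in wild-type recipients.

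Where a gene had further probes, these gave a second reading of the same RNA. Of 190 other probes of the lower separated genes, 59 were separated in the same direction (31.1%, against 1.32% of all other probes) and 162 had a lower mean. Of 124 other probes of the higher separated genes, 11 were separated in the same direction (8.87%, against 0.886%) and 101 had a higher mean.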

How the data were processed

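Lung RNA of 8 mice was hybridised to 1-colour Agilent arrays. The deposited array files hold intensity values made by the authors with Agilent Feature Extraction 11.5.1.1, background-subtracted per the file headers, with probe positions on mm9. Values in the deposited series table are log2, matched the log2 processed intensity minus each array's 75th percentile, and served as an alternative. Here non-uniform spots were left out, spots of a probe averaged, log2 taken and the 75th percentile subtracted. Probes that both arrays of some group measured well above background were kept, and the brightest stood for a gene (25830 genes). limma 3.58.1 in R 4.3.3 fitted 4 group means, with Benjamini-Hochberg adjustment over all genes. The fit was tested on simulated data. The number of arrays limits the precision, and the labels name the mice only by group, so p-values measure the spread between 2 samples a group. Fold bounds set a dim array at the higher of its own value and the lowest signal well above background. Promoters come from RefSeq, GRCm38.p6. Names are the array's.

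Genes were named by rule: the 15 higher and 15 lower with the widest gap, the 10 called each way with the largest difference, up to 4 of each list, fixed markers, and those at the edge. Some genes under this rule are not reported here. Names outside it (Tyrobp, Fcer1g, Fcgr1, Fcgr2b, Fcgr3, Inpp5d, Spi1, Csf2ra, Csf2rb, Csf2rb2, Gp5, Stip1, Hspe1, Hsp90ab1, Decr1, Ech1, Eci1, Alb, Ly6c1, Irf5, Itgb2, Tlr3, Tlr5, Tlr8, Tlr9, Il3ra, Il5ra, Ces3a) were chosen after their values were seen. Members and lists were chosen with earlier results of these data known, and 7 lists were added after the levels were seen. Alternatives were other background corrections, scalings, filters, probe summaries and models, each array left out, and, chosen after seeing the data, outlier spots removed.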

Additional observations from a re-analysis of the deposited data

Results flagged for a closer look

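In 7 named genes the marrow effect in LysM-DTR recipients differed from that in wild-type recipients in limma's interaction test, by LL minus WL less LW minus WW on the log2 scale. The differences were -6.8 in Ms4a7, -6.01 in Cx3cr1, -5.98 in Clec7a, -5.83 in C1qa, -5.71 in C1qc, -5.24 in Cd163 and -4.44 in C1qb, all genes of macrophages. Cd163 was not well above background on either LL array, and Ms4a7 and Cx3cr1 not on 1 of the LL arrays, so their sizes rest on values near background. Over all genes, 16 passed this test (0.0619%). Genes with neither group above background in one of the recipients are not given here.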

How the results depend on the processing

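Limma called 82 genes for the averaged marrow effect, against 48 with normexp background correction, 42 among genes above background on all 8 arrays, 9 with no filter, and 0 with an additive model or with the donor term alone. Leaving out 1 array at a time gave 0 to 2183. Between LL and WL, 445 genes were called, and 23 to 5091 with 1 array left out; between LW and WW 14, and 0 to 8; for the difference between the marrow effects 16, and 0 to 2209. With the compared arrays alone, 0 were called between LL and WL and 0 between LW and WW. Separated genes numbered 291 higher, 190 with normexp and 367 to 910 with 1 array left out, and 339 lower, 466 to 1080 with 1 array left out. Fewer arrays make the rule easier to meet. The averaged difference of Rtel1 turned to -0.02 over the mean of its probes. With 1 array left out, that of Tlr5 ranged between -0.14, without WL replicate 2, and 0.79, and that of Il5ra between -0.29 and 0.11, without WL replicate 1. Where a count moved otherwise, the cause was not tested.

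Same-numbered mice of different groups did not deviate together (correlations of -0.1 to 0.19), so the numbers do not pair the samples. With the replicate block, 22 genes were called for the averaged effect, 272 between LL and WL, 1 between LW and WW and 2 for the difference between the marrow effects.

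Quantile normalization, the percentile over probes above background, the deposited table and the mean of probes kept the averaged calls and both separated counts within 1.5 times. The calls within each recipient and for the difference between the marrow effects were not run under other background corrections, scalings or probe summaries. Weak probes limit the comparison: 267 lower and 250 higher separated genes were above background on all 8 arrays.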
